A study of Mus musculus with 4 samples.

Results

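Aminoacyl-tRNA synthetases and the scaffold genes of the multi-synthetase complex were followed in mouse macrophages with and without stimulation. The members are 39 of the 18256 genes listed in every library. They were chosen by symbol, as 1 letter of an amino acid followed by ars with or without 1 or 2, the gene pair Farsa and Farsb, and the scaffold genes Aimp1, Aimp2 and Eef1e1. Of these, 19 encode cytosolic enzymes, 17 encode mitochondrial enzymes (symbols ending in 2) and 3 encode scaffold proteins. Members were counted as mitochondrial by that ending, so Gars and Kars, single genes that serve both compartments, stand with the cytosolic enzymes. Eprs, the enzyme for glutamate and proline, does not match the symbol rule and is described with the other genes of tRNA charging. All 39 members passed the filter on low counts, and the lowest count of a member in a library was 114.

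The libraries came from bone marrow cells of wild-type mice, grown for 7 days in 20 ng/ml MCSF (macrophage colony-stimulating factor), which turns marrow cells into macrophages. M0 macrophages stayed without stimulus in MCSF, and M1 macrophages received 20 ng/ml interferon-gamma (IFN-γ) and 100 ng/ml bacterial lipopolysaccharide (LPS) for 24 h. There were 2 libraries in each group, made from total RNA after removal of ribosomal RNA. The labels give neither the age, sex and strain of the mice nor whether MCSF stayed in the M1 medium. They also do not tie the libraries of a group to different mice or dishes. A p-value here thus reflects how far 2 libraries of a group lay apart, for the gene itself and across all tested genes. That distance may be technical. Each library held 15921466 to 18987705 counts over genes, of which 50479 to 60240 fell on the members. In bulk RNA, a change in the share of a cell type and a change of RNA per cell cannot be told apart.

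Aminoacyl-tRNA synthetases join each amino acid to its tRNA, the step that fixes the genetic code in protein synthesis. Most amino acids have one enzyme in the cytosol and another, encoded by a separate nuclear gene, in mitochondria, where it serves the few proteins made from mitochondrial DNA. In mammals several cytosolic enzymes sit in a multi-synthetase complex held together by Aimp1, Aimp2 and Eef1e1. Many cytosolic synthetase genes are known targets of ATF4, the transcription factor of the amino acid and integrated stress responses, and the tryptophan enzyme is known in human cells as a gene induced by IFN-γ.

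The stimulus itself was checked first. Of 12 fixed response genes, 11 were tested and all 11 were higher in M1 (edgeR quasi-likelihood test, Benjamini-Hochberg adjusted p under 0.05, here and for every call that names no other tool). Nos2, the inducible nitric oxide synthase, had 0.288 and 0 CPM (counts scaled to library depth) in M0 against 51.8 and 53.5 CPM in M1. Il1b, which encodes interleukin-1β, went from 5.32 and 11 CPM to 3561 and 3626 CPM. All 8 macrophage markers were present in both groups, among them Csf1r, the MCSF receptor, at a mean of 3401 CPM in M0 and 3100.4 CPM in M1, Adgre1 at 1369 and 4878 CPM, and Cd68 at 804 and 443 CPM. Markers of other cells were also followed. Neutrophil markers summed to 196 and 217 CPM in M0 and to 145 and 105 CPM in M1, with 4 of 6 tested lower and 1 higher and Ly6g at 0 in M1. Stromal markers summed to 697 and 674 CPM in M0 and to 442 and 499 CPM in M1, with 2 of 4 higher and 2 lower. Markers of T and NK cells, B cells and erythroid cells stayed under 1 CPM in sum in each library, with Cd3g, Ncr1 and Ms4a1 at 0. The proliferation genes summed to 567 and 507 CPM in M0 and to 392 and 421 CPM in M1. The part of these other cells and of proliferation in the results below was not tested.

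Cytosolic enzymes rose or did not pass the test, mitochondrial enzymes went both ways, and 2 of 3 scaffold genes rose. Of 19 cytosolic enzymes, 8 were called higher in M1, 0 lower and 11 were not called. At an unadjusted p under 0.05 there were 10 higher and 0 lower, and DESeq2 and limma-voom each called 8 higher and 0 lower. Of 17 mitochondrial enzymes, 3 were called higher, 3 lower and 11 were not called. At an unadjusted p under 0.05, 3 mitochondrial enzymes were higher and 4 lower, and DESeq2 and limma-voom each called 3 higher and 3 lower. Of 3 scaffold genes, 2 were called higher and 0 lower. At an unadjusted p under 0.05, 3 scaffold genes were higher and 0 lower, and DESeq2 and limma-voom each called 2 higher and 0 lower. Of all 12966 tested genes, 3495 were higher and 3584 lower at an unadjusted p under 0.05. DESeq2 called 2932 of them higher and 2790 lower, and limma-voom 3176 and 3137. The edgeR test with adjusted p called 48.2% of them, 24.2% as higher and 24.0% as lower. Read against these shares, 8 of 19 cytosolic enzymes higher is above the background and 0 lower is below it. For mitochondrial enzymes, 3 of 17 in each direction is near the background. None of these differences was tested. Over all 39 members, 13 were higher, 3 lower and 23 not called, so a call was less common among them than among all tested genes, and no test was made of that difference.

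The changes were small beside those of many other genes, of which 1287 called genes at least doubled and 1504 at least halved. The median log2 fold change (M1 over M0) was 0.23 over the cytosolic enzymes, -0.15 over the mitochondrial enzymes and 0.54 over the scaffold genes, beside -0.02 over all tested genes. The cytosolic values ran from -0.19 to 0.95 and the mitochondrial values from -0.66 to 0.93, and 1 called member, Eef1e1, at least doubled. The fitted value was above 0 for 17 cytosolic enzymes and below 0 for 2. It was above 0 for 7 mitochondrial enzymes and below 0 for 10. Both M1 libraries lay above both M0 libraries for 16 cytosolic and 7 mitochondrial enzymes and below them for 1 and 9. Of all 12966 tested genes, 4792 lay above and 4926 below, so 74.9% were separated in one direction or the other. The level of these medians depends on how libraries are scaled. With library totals in place of TMM factors the median of all tested genes moved by -0.25 and that of the cytosolic enzymes became -0.02. The cytosolic median stood 0.24 above that of all tested genes, and the mitochondrial median stood 0.13 to 0.14 below it. These distances were the same under TMM factors, upper-quartile factors and library totals. Such factors move all genes by nearly the same amount, so the distances could hardly differ, and their agreement is no further support.

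**Figure D1:**
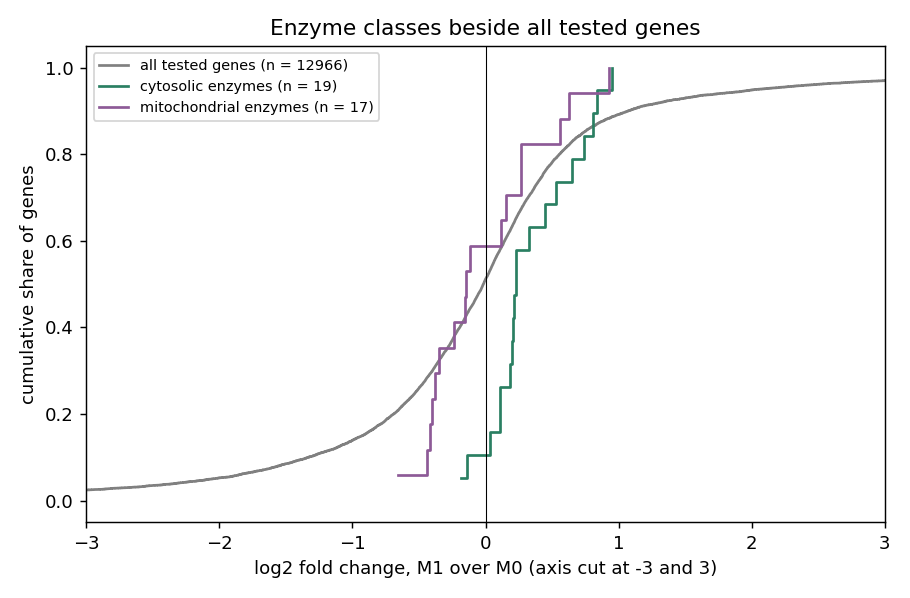
Cumulative share of genes (vertical axis) against log2 fold change, M1 over M0 (horizontal axis, cut at -3 and 3), for the 19 cytosolic enzymes, the 17 mitochondrial enzymes and all 12966 tested genes. The cytosolic curve lies to the right of 0 for all but 2 genes, and both enzyme curves are much steeper than that of all genes.

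Histidine and alanine enzymes showed the largest cytosolic rises. Hars, which charges the histidine tRNA (chromosome 18, 36766528 to 36783205 in GRCm38, minus strand), stood at 59.7 and 56.8 CPM in the M0 libraries and at 110.4 and 115 CPM in the M1 libraries. Its log2 fold change was 0.95 (SE 0.104, 95% interval 0.72 to 1.18, edgeR adjusted p = 2.12e-05). The groups lay far apart relative to the gap between replicates. Aars, the alanine enzyme (chromosome 8, 111033144 to 111057664), had 129 and 134 CPM in M0 and 234 and 235 CPM in M1. Its log2 fold change was 0.84 (SE 0.0938, edgeR adjusted p = 2.47e-05). Both M1 libraries were well above both M0 libraries, and annotated genes on the same strand share 14.3% of the exon length of Aars, so its count is uncertain.

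The arginine and lysine enzymes belong to the multi-synthetase complex. Rars (chromosome 11, 35808381 to 35834506) had 67.8 and 81.9 CPM in M0 and 128 and 134 CPM in M1, a log2 fold change of 0.81 (SE 0.116, edgeR adjusted p = 0.000177). Kars (chromosome 8, 111993443 to 112011323) had 56.7 and 61.4 CPM in M0 and 106 and 91.4 CPM in M1, a log2 fold change of 0.74 (SE 0.116, edgeR adjusted p = 0.000325). Neither gene had overlapping groups. Of the 7 cytosolic members known to sit in the complex, these were the 2 called. The other 5 are Dars, Iars, Lars, Mars1 and Qars, the enzymes for aspartate, isoleucine, leucine, methionine and glutamine, with log2 fold changes of 0.22, -0.14, 0.21, 0.19 and 0.11. The 12 cytosolic enzymes outside the complex held 6 called genes. The medians were 0.21 inside the complex and 0.28 outside it, and the difference was not tested.

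Wars, the tryptophan enzyme (chromosome 12, 108860030 to 108894174), had 69.0 and 77.9 CPM in M0 and 111 and 119 CPM in M1. Its log2 fold change was 0.65 (SE 0.110, edgeR adjusted p = 0.00056), which made it the fifth of the 19 cytosolic enzymes by rise. Among the 12966 tested genes its rise ranked 2221. Without Wars, 7 of 18 cytosolic enzymes were called higher and the median was 0.22. Tars, the threonine enzyme (chromosome 15, 11382301 to 11399665), had 102 and 103 CPM in M0 and 152 and 143 CPM in M1, a log2 fold change of 0.53 (SE 0.0977, edgeR adjusted p = 0.00106).

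Phenylalanyl-tRNA synthetase of the cytosol is built from the products of Farsa and Farsb, and both transcripts were called higher. Farsa had 60.2 and 65.8 CPM in M0 and 86.1 and 85.7 CPM in M1 (log2 fold change 0.45, SE 0.108, edgeR adjusted p = 0.0054). Farsb had 97.3 and 99.4 CPM in M0 and 128 and 118 CPM in M1 (0.32, SE 0.101, edgeR adjusted p = 0.0213). For both genes the M1 libraries were above the M0 libraries. Of the exon length of Farsb, 9.47% lies opposite Sgpp2, so its count is uncertain. The calls of Farsa and Farsb were the least stable of the class. Over the 12 alternatives the edgeR, DESeq2 or limma-voom adjusted p ran from 0.00226 to 0.148 for Farsa and from 0.0141 to 0.58 for Farsb. The call of Farsa was lost without M0 replicate 1 (0.1), without M0 replicate 2 (0.0519) and with library totals (0.148). That of Farsb was lost in 6 of the 12, among them the fits without M0 replicate 1 (0.162), M0 replicate 2 (0.131) and M1 replicate 1 (0.09) and those with upper-quartile factors (0.0962) and library totals (0.58). The calls of Aars, Hars, Kars, Rars, Tars and Wars held in all 12 alternatives.

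The other 11 cytosolic enzymes were not called. Nars, the asparagine enzyme, had 243 and 258 CPM in M0 and 224 and 216 CPM in M1, both lower, with a log2 fold change of -0.19 (95% interval -0.39 to 0.02, edgeR adjusted p = 0.124). For Iars the groups overlapped, at 137 and 116 CPM in M0 and 107 and 124 CPM in M1, and 49.9% of its longest transcript is matched by a processed pseudogene, so its count is uncertain. Vars, the valine enzyme, also overlapped, at 204 and 195 CPM against 202 and 207.5 CPM. The remaining 8 were higher in both M1 libraries with fitted values of 0.11 to 0.23, among them Yars, the tyrosine enzyme (0.23, 95% interval 0.00 to 0.45), Cars, the cysteine enzyme (0.23), Gars, the glycine enzyme (0.20), and Sars, the serine enzyme (0.11). By structural class, 2 of 9 class I enzymes and 6 of 10 class II enzymes were called higher, with medians of 0.21 and 0.39, and the difference was not tested.

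**Figure D2:**
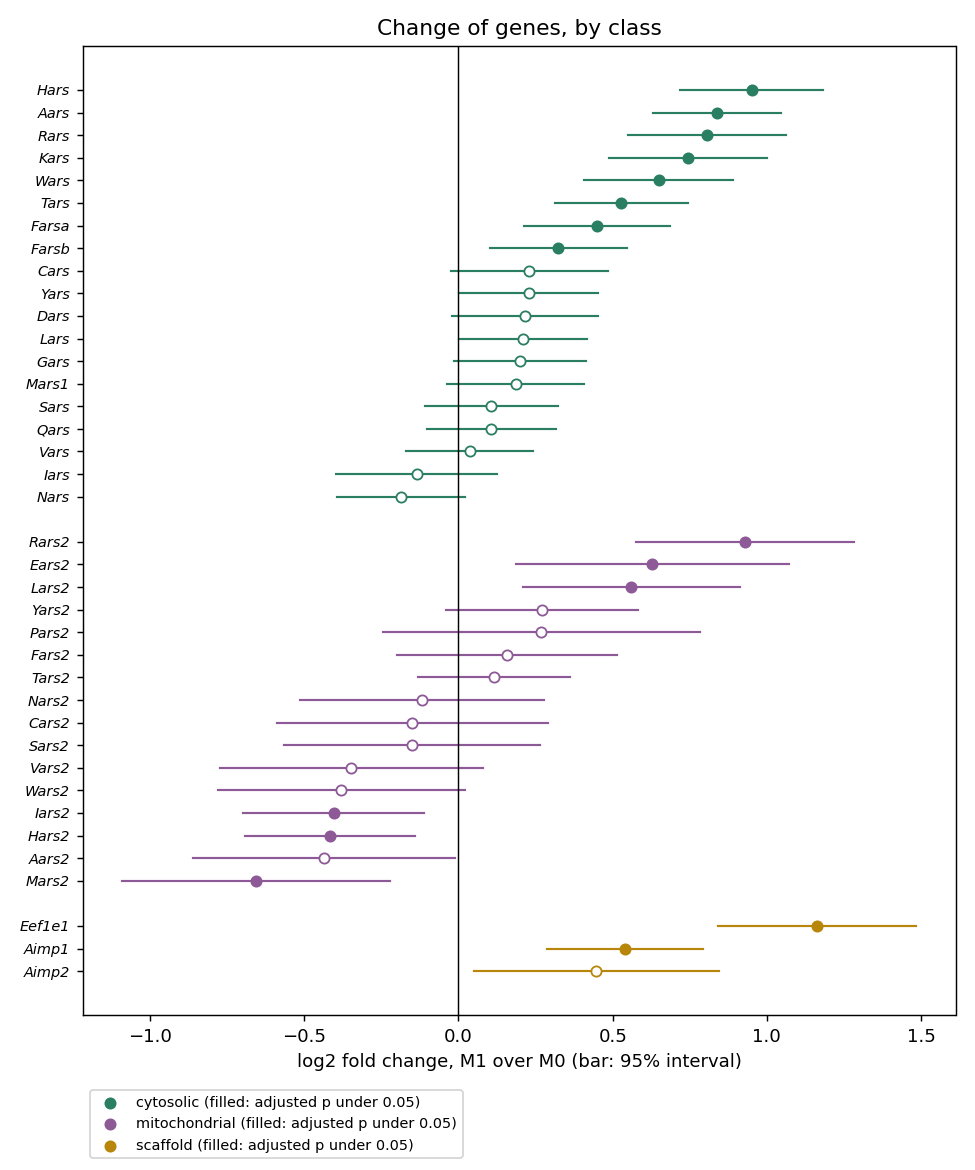
Log2 fold change, M1 over M0, of the members with a 95% interval, leaving out 1 mitochondrial enzyme (horizontal axis), grouped as cytosolic, mitochondrial and scaffold genes; filled points passed an edgeR adjusted p of 0.05. Filled cytosolic and scaffold points all lie above 0, and filled mitochondrial points lie on both sides.

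Among mitochondrial enzymes the arginine gene rose most. Rars2 (chromosome 4, 34614957 to 34660167) had 13.2 and 13.1 CPM in M0 and 23.4 and 26.6 CPM in M1, a log2 fold change of 0.93 (SE 0.160, 95% interval 0.57 to 1.28, edgeR adjusted p = 0.000657). The M0 libraries were nearly equal and both M1 libraries were well above them. It was the single mitochondrial call of 6 that held in all 12 alternatives. Ears2, the glutamate enzyme of mitochondria, had 9.54 and 12.3 CPM in M0 and 18.5 and 15.2 CPM in M1 (0.63, SE 0.201, edgeR adjusted p = 0.0239). Its adjusted p ran from 0.00839 to 0.211 over the alternatives, and the call was lost without M0 replicate 1 (0.211), M0 replicate 2 (0.0684) and M1 replicate 1 (0.123) and with library totals (0.134).

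Lars2, the mitochondrial leucine enzyme (chromosome 9, 123366927 to 123462666), stood apart in level and in spread. It had 205 and 233 CPM in M0 and 259 and 387 CPM in M1, and M1 replicate 2 alone lay far above the rest. Its log2 fold change was 0.56 (SE 0.160, edgeR adjusted p = 0.0136). Without M1 replicate 2 it was 0.26 (adjusted p = 0.0926), and the call was also lost without M0 replicate 1 (0.265) and M0 replicate 2 (0.155) and with library totals (0.125), within a range of 3.38e-05 to 0.265 over the 12 alternatives. Its cytosolic partner Lars had 149 and 143 CPM in M0 and 169 and 169 CPM in M1 (0.21, SE 0.0943, edgeR adjusted p = 0.0891).

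Mitochondrial enzymes called lower were those for methionine, histidine and isoleucine. Mars2 (chromosome 1, 55237177 to 55248470) had 25.9 and 18.3 CPM in M0 and 13.1 and 15.0 CPM in M1, a log2 fold change of -0.66 (SE 0.197, edgeR adjusted p = 0.0177). Hars2 had 46.1 and 52.6 CPM in M0 and 36.4 and 37.5 CPM in M1 (-0.42, SE 0.125, edgeR adjusted p = 0.0175). Iars2 had 102 and 81.4 CPM in M0 and 64.3 and 74.5 CPM in M1 (-0.40, SE 0.133, edgeR adjusted p = 0.0272). In these 3 genes both M1 libraries were below both M0 libraries, though in each gene the M0 libraries differed by more than the M1 libraries. None of the 3 calls held throughout. Adjusted p ran from 0.00259 to 0.229 for Mars2, from 0.000901 to 0.165 for Hars2 and from 0.00189 to 0.326 for Iars2. Without M0 replicate 1 their log2 fold changes were -0.38, -0.51 and -0.23 and all 3 calls were lost (adjusted p = 0.229, 0.0637 and 0.326). Without M1 replicate 1 they were -0.56, -0.39 and -0.30 (0.067, 0.057 and 0.116), and without M0 replicate 2 Hars2 and Iars2 were at -0.31 and -0.55 (0.165 and 0.0638). Of the exon length of Iars2, 24.2% is shared with other annotated genes.

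Aars2 had 13.6 and 14.7 CPM in M0 and 11.4 and 9.53 CPM in M1, a log2 fold change of -0.44 (SE 0.193) that missed the threshold (edgeR adjusted p = 0.0841, unadjusted p under 0.05). The other 10 mitochondrial enzymes that were not called lay between -0.38 for Wars2 and 0.27 for Yars2 and Pars2. Wars2 had 23.0 and 17.3 CPM in M0 and 15.2 and 15.9 CPM in M1. Cars2 was the single mitochondrial enzyme whose groups overlapped, at 26.9 and 17.6 CPM in M0 and 19.8 and 20.4 CPM in M1. By structural class, class I held 3 higher and 2 lower of 9, and class II held 0 higher and 1 lower of 8.

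The scaffold gene Eef1e1 had the largest rise of all members. The protein it encodes, also called AIMP3 or p18, anchors enzymes in the complex. Eef1e1 (chromosome 13, 38644207 to 38659058) had 27.5 and 21.8 CPM in M0 and 58.7 and 52.0 CPM in M1, a 2.24-fold rise (log2 fold change 1.16, SE 0.145, 95% interval 0.84 to 1.48, edgeR adjusted p = 5.91e-05). The groups lay far apart relative to the gap between replicates, and the call held in all 12 alternatives. Aimp1, whose product in human cells is also the precursor of a secreted cytokine, had 49.1 and 56.2 CPM in M0 and 76.9 and 76.0 CPM in M1 (0.54, SE 0.115, edgeR adjusted p = 0.00261). That call was lost with library totals (adjusted p = 0.0532) and without M0 replicate 1 (adjusted p = 0.0771, range 0.000401 to 0.0771). Aimp2 had 11.2 and 13.6 CPM in M0 and 16.9 and 16.8 CPM in M1 (0.45, SE 0.180, edgeR adjusted p = 0.0615). Its groups did not overlap, but 29.4% of its exon length lies opposite Eif2ak1, and the strand setting of the counting is not given in the sources used here.

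Levels were compared between genes per kb of exon. The order of genes, here and for the mitochondrial enzymes below, depends on that length and was not taken per kb of the longest transcript. Nars, for example, has 4355 bases of exon and 2745 in its longest transcript, against 3119 and 2380 for Gars. Among cytosolic enzymes, Nars was highest in M0 at 57.5 ± 2.41 CPM per kb (SD, n = 2 libraries), followed by Gars at 49.5 ± 0.783, Farsb at 37.5 ± 0.552 and Vars at 35.6 ± 1.22. Cars was lowest at 8.16 ± 0.678 CPM per kb. In M1 the order at the top changed to Gars (56.9 ± 3.32), Nars (50.5 ± 1.28), Farsb (47.0 ± 2.66) and Hars (46.0 ± 1.28), where Farsb and Hars did not differ beyond their spread. Hars moved from place 10 to place 4 of 19, Rars from 11 to 5 (23.2 ± 3.08 to 40.5 ± 1.41 CPM per kb) and Wars from 12 to 8 (21.3 ± 1.83 to 33.4 ± 1.74). Of the 8 enzymes called higher, 7 had stood at places 10 to 18 in M0, and Farsb at place 3.

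Mitochondrial enzymes were lower per kb. Lars2 was the highest of them at 19.7 ± 1.78 CPM per kb in M0 and 29.1 ± 8.13 in M1, and Hars2 (11.5 ± 1.08) and Iars2 (10.3 ± 1.66) followed in M0. In M1 the next after Lars2 were Yars2 (9.86 ± 0.847) and Rars2 (9.03 ± 0.797), which overlapped within their spread with Hars2 (8.63 ± 0.19). Mars2 and Nars2 were lowest in M0, each at 1.96 CPM per kb. Summed over the class, cytosolic enzymes held 480.6 and 490.4 CPM per kb in M0 and 600.1 and 597.7 in M1, with no overlap. The mitochondrial sum was 96.5 and 96.6 in M0 and 96.9 and 111 in M1, and without Lars2 it was 78.0 and 75.6 against 73.6 and 76.4, which overlapped. The cytosolic sum was 4.98 and 5.08 times the mitochondrial sum in M0 and 6.19 and 5.37 times in M1. Counted per kb of the longest transcript these ratios were 4.23 and 4.29 against 5.11 and 4.16, which overlapped, and without Lars2, per kb of exon, they were 6.16 and 6.49 against 8.16 and 7.82.

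**Figure D3:**
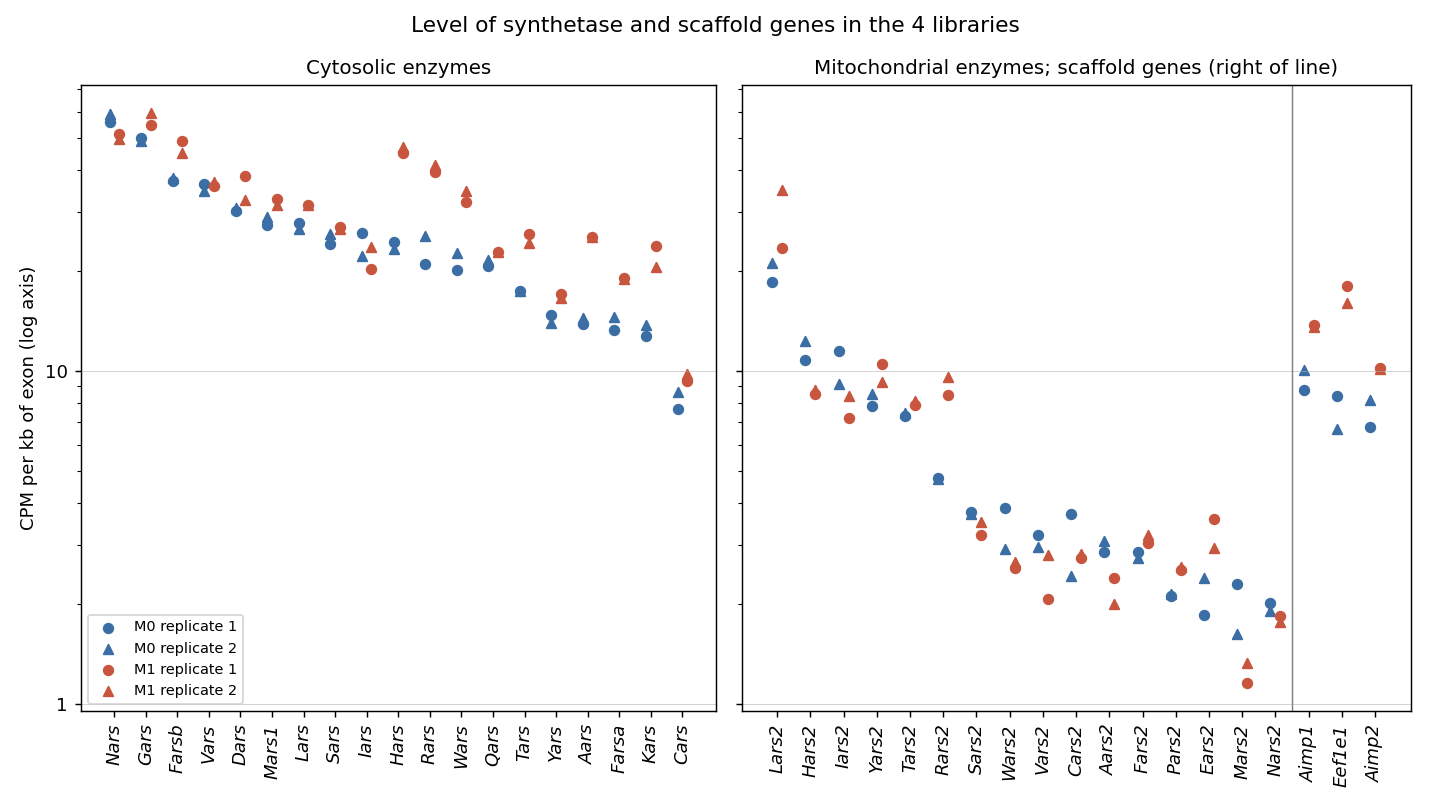
Level of the members, leaving out 1 mitochondrial enzyme, in CPM per kb of exon (log axis) in the 4 libraries, by class, with each point 1 library. Most cytosolic genes lie above most mitochondrial genes, and Lars2 is the highest of the mitochondrial genes at 19.7 CPM per kb in M0 and 29.1 in M1.

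For 15 amino acids both enzymes are among the members, so the cytosolic gene can be set against its mitochondrial partner inside each library, a ratio that does not depend on library scaling. The log2 ratio of levels per kb was above 0 in all 4 libraries for 14 of 15 pairs. The exception was leucine, at 0.59 and 0.34 in M0 and 0.43 and -0.15 in M1. Its sign depends on the length used. Per kb of the longest transcript the leucine ratio was below 0 in all 4 libraries, at -0.49 and -0.74 in M0 and -0.64 and -1.23 in M1. The ratio was higher in both M1 libraries than in both M0 libraries for 10 pairs, lower in both for 0 and overlapping for 5, with a median change of 0.34. An exact two-sided permutation test of 2 against 2 libraries cannot give a p below 0.333, so these ratios are a description. They restate the changes of the same genes given above and were not set beside ratios of other gene pairs.

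Histidine shifted most. Its log2 ratio went from 1.18 and 0.92 in M0 to 2.41 and 2.42 in M1, a change of 1.37. It was the single pair with opposite calls, Hars higher and Hars2 lower. These genes lie head to head on chromosome 18, Hars on the minus strand and Hars2 (36783008 to 36792562) on the plus strand, and their ends overlap, with 7.97% of the exon length of Hars and 4.56% of that of Hars2 shared between them. The count of each is uncertain there, since the strand setting is not given in the sources used here. Alanine went from 2.28 and 2.22 to 3.40 and 3.66 (change 1.28), tryptophan from 2.37 and 2.96 to 3.65 and 3.70 (1.01), and methionine from 3.58 and 4.16 to 4.82 and 4.57 (0.82). For methionine the cytosolic gene Mars1 itself was not called, at 93.8 and 99.4 CPM in M0 and 112 and 108 CPM in M1 (log2 fold change 0.19, SE 0.101, edgeR adjusted p = 0.151).

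Arginine differed from these. Rars and Rars2 were the single pair in which both genes were called higher, and their log2 ratio, 2.14 and 2.42 in M0 and 2.22 and 2.11 in M1, overlapped between the groups (change -0.11). The ratio also overlapped for cysteine (change 0.34), tyrosine (-0.04), asparagine (-0.07) and leucine (-0.32). In the other pairs with a higher ratio the changes included 0.41 for threonine, 0.40 for valine, 0.29 for phenylalanine (Farsa) and 0.26 for isoleucine and for serine.

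**Figure D4:**
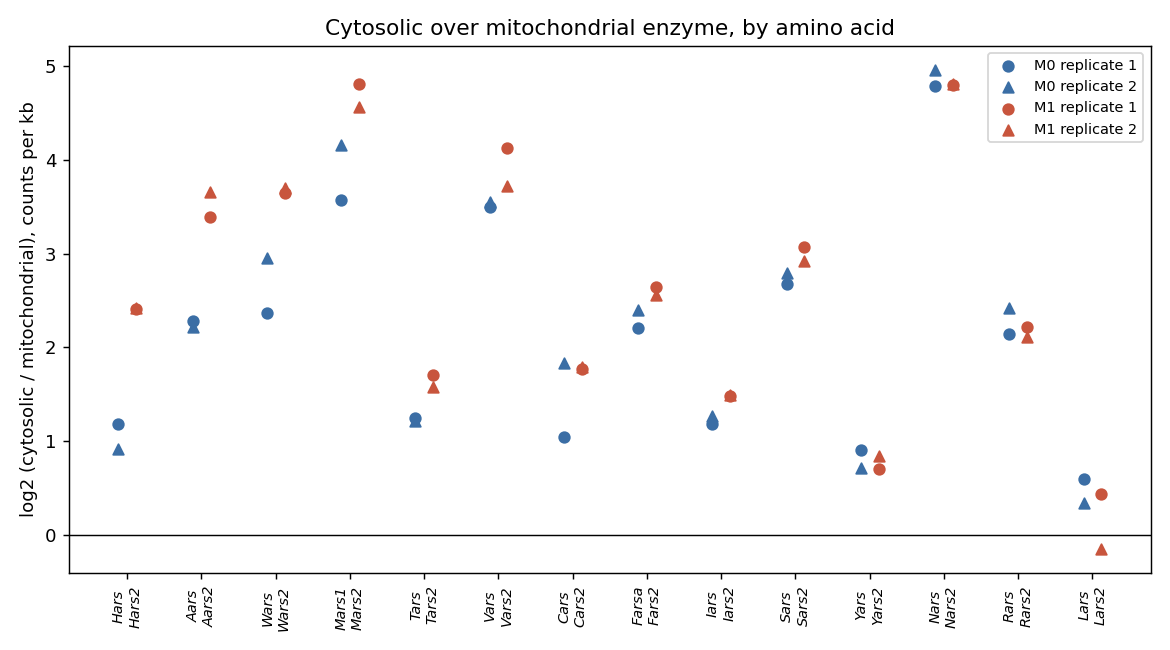
Log2 ratio of the cytosolic over the mitochondrial enzyme (counts per kb of exon, vertical axis) by amino acid, leaving out 1 of the 15 pairs, with 1 point for each library and colours for M0 and M1. Both M1 points lie above both M0 points for most pairs shown, and histidine shows the largest change (1.37).

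Promoters were read because several enzymes rose together, and the windows of 3 genes are shown because they hold the C/EBP-ATF response element core, the site through which ATF4 acts on amino acid response genes. The windows are the 250 bases before the RefSeq start in GRCm38.p6, and 29 of 39 members had one. The letters searched were TGATGNAA on both strands. The capitals mark the match, which reads on the opposite strand from the gene in all 3, 112 bases before the start in Aars, 15 in Tars and 30 in Gars. The windows are chr8:111033592-111033841 (plus strand) for Aars, chr15:11399659-11399908 (minus strand) for Tars and chr6:55037751-55038000 (plus strand) for Gars. The Aars window lies inside the GENCODE span of that gene, which starts at 111033144, so the RefSeq and GENCODE starts of Aars differ.
Aars: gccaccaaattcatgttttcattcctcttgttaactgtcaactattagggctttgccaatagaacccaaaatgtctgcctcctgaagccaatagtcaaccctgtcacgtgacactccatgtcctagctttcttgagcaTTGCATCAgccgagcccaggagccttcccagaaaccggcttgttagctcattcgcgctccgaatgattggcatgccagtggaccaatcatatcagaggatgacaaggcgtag
Tars: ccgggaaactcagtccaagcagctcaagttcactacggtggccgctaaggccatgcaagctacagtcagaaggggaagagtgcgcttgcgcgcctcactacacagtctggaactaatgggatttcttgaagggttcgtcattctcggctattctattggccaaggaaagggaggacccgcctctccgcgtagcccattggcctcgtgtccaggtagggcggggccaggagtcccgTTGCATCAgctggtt
Gars: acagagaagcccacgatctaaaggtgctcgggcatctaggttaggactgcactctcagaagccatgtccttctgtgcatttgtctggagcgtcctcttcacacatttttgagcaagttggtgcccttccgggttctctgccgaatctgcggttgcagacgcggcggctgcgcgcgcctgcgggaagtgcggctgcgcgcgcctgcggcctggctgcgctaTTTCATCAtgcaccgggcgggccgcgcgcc

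Of 12 cytosolic windows, 3 (25%) held this core, beside 0 of 15 mitochondrial windows and 0 of 4 scaffold windows (some genes have more than 1 window). In all promoter windows of the table the share was 3.45% (1134 of 32851) and in those of tested genes 2.04%. Of the matches, Aars and Tars were called higher and Gars was not (log2 fold change 0.20), so 2 of 5 windows of called cytosolic genes and 1 of 7 of the others held it. The gamma-activated sequence TTCNNNGAA, which reads the same on both strands, was found in Aars, Kars, Nars2 and Eef1e1. It was thus in 2 of 12 cytosolic, 1 of 15 mitochondrial and 1 of 4 scaffold windows. The shares were 7.02% in all windows and 5.87% in those of tested genes. Among cytosolic windows, 2 of 5 of called genes and 0 of 7 of the others held it. The repeated GAAA of the interferon-stimulated response element, searched on both strands, was found in Qars, beside 2.98% and 2.89%. That is 1 of 12 cytosolic windows, with 0 of 5 of called genes and 1 of 7 of the others. A match describes letters and was not tested as a binding site. Windows of Cars, Hars, Lars, Nars, Rars, Vars, Wars, Hars2 and Pars2 were not analysed here.

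Of 19 other genes of tRNA charging, 4 were called higher, 2 lower and 13 were not called, beside 24.2% higher and 24.0% lower over all tested genes. The share called higher is thus near the background and the share called lower is under it. Eprs, the bifunctional enzyme of the complex, had 221 and 209 CPM in M0 and 255 and 281 CPM in M1 (log2 fold change 0.32, SE 0.0979, edgeR adjusted p = 0.02), a call that 6 of 12 alternatives lost (adjusted p = 0.0114 to 0.6), among them those without M0 replicate 1, M0 replicate 2 and M1 replicate 2. Sephs2, which makes the selenium donor for selenocysteine tRNA, rose from 106 and 118 CPM to 270.4 and 246 CPM (1.21, edgeR adjusted p = 2.77e-06), and 36.4% of its exon length lies opposite an annotated gene. Dtd2, a deacylase that removes mischarged amino acids, rose by 0.84 (edgeR adjusted p = 0.00258). Tarsl2, a second cytosolic threonine enzyme outside the symbol rule, fell from 13.8 and 12.5 CPM to 4.99 and 4.00 CPM (-1.54, edgeR adjusted p = 0.000237), the opposite direction to Tars. Gatc, a subunit of the amidotransferase that makes glutaminyl-tRNA in mitochondria, fell by 0.67 on the log2 scale (edgeR adjusted p = 0.012), and without M0 replicate 2 the change was -0.34 and the call was lost (adjusted p = 0.186, range 0.000666 to 0.186).

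The list of 33 mitochondrial translation factors and tRNA maturation genes held 8 called higher and 0 called lower, with 25 not called and a median of 0.26. The share called higher is about that of all tested genes (24.2%), and the share called lower is below the 24.0% of all tested genes. At an unadjusted p under 0.05 there were 8 higher and 1 lower (Tfb2m), DESeq2 called 5 higher and 0 lower and limma-voom 8 and 0. The largest were Tfb1m, a ribosomal RNA methyltransferase (0.89, from 5.95 and 4.64 to 9.79 and 9.90 CPM), Hsd17b10, a subunit of mitochondrial RNase P (0.66), Elac2, which trims tRNA ends (0.63), and Pus1, a pseudouridine synthase (0.54), whose count is uncertain because other annotated genes share 30.1% of its exon length. Without M0 replicate 1 the list held 1 gene called higher, and without M0 replicate 2 it held 0. The difference between this list and the mitochondrial synthetases was not tested.

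Genes of the amino acid and integrated stress responses moved both ways, with 11 of 44 higher, 17 lower and 16 not called and a median of -0.21. The share called higher is near the 24.2% of all tested genes, and the share called lower is above the 24.0%, a difference that was not tested. Atf4 itself had 94.9 and 109 CPM in M0 and 166 and 131 CPM in M1 (0.54, SE 0.129, edgeR adjusted p = 0.00519). The call of Atf4 was lost without M0 replicate 1 (adjusted p = 0.163), without M0 replicate 2 (0.0776) and with library totals (0.0735), within a range of 0.000159 to 0.163 over the 12 alternatives. The largest changes were in Slc7a11, the cystine transporter (2.89, from 29.2 and 30.7 to 203 and 242 CPM), Eif2ak2, the double-stranded RNA kinase PKR that interferons induce (2.40), Gdf15 (-2.33) and Nupr1 (2.07). The next genes were picked with their values in view. Ddit3, which encodes CHOP, rose by 1.38 (edgeR adjusted p = 0.000199). Asns, the asparagine synthetase and a standard ATF4 target, had 97.7 and 98.3 CPM in M0 and 85.2 and 80.5 CPM in M1 (-0.24, edgeR adjusted p = 0.0728), and Psat1 of serine synthesis fell by 0.39 on the log2 scale (edgeR adjusted p = 0.00524). Over the 12 alternatives the adjusted p of Psat1 ran from 0.000157 to 0.082, and leaving out M0 replicate 1 (0.082) or M0 replicate 2 (0.0728) ended its call. Eif2ak4, the kinase GCN2 that senses uncharged tRNA, went from 55.2 and 56.0 CPM to 28.1 and 31.7 CPM (-0.89, edgeR adjusted p = 0.000133). Its regulator Impact went from 123 and 130 CPM to 67.6 and 75.0 CPM (-0.83, edgeR adjusted p = 7.36e-05).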

How the data were processed

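RNA-seq counts of 2 M0 and 2 M1 libraries were used. The deposited files hold raw read counts for each gene symbol. Per the submitters' processing notes, the authors used featureCounts (Subread 2.0.1), the build mm10, DESeq2 1.30.1 and R 4.0.4. The annotation and strand setting of the counting are not given in the sources used here, so counts of overlapping genes are uncertain.

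On these counts, filterByExpr (edgeR 4.0.16, minimum count 10, minimum total 15) kept 12966 genes, which were scaled by TMM. The quasi-likelihood test of edgeR set M1 against M0 with group as the only term (R 4.3.3). Adjusted p-values are Benjamini-Hochberg values across the 12966 genes, called under 0.05. The common dispersion of 0.0118 is a biological coefficient of variation of 10.9%, on 2 residual degrees of freedom. The quasi-likelihood fit of each gene also drew on the spread of all tested genes. The standard error is the log2 fold change over the square root of the F statistic. CPM used library totals times TMM factors, where 3 counts are 0.144 to 0.185 CPM. Lengths and positions came from GENCODE M21 (GRCm38), promoters from RefSeq (GRCm38.p6). The fit was tested on simulated data. Within a group the libraries were more different than counting error allows (chi-square over degrees of freedom 9.19 in M0 and 13.4 in M1). Each library was treated as 1 sample. That spread may be technical and does not show that the libraries came from different mice or dishes.

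1 member enters the counts and sums of its class and is otherwise not reported here. The members and the lists were chosen with earlier results of these data known. Values in full are given for up to 4 called members with the largest rise and up to 4 with the largest fall in each class, and for their partners. From other lists, up to 4 called genes with the largest change, up to 2 of the opposite direction and fixed genes are named. The 12 alternatives were other scaling factors, library totals, DESeq2 1.42.0, limma-voom 3.58.1, no filter, a stricter filter, the replicate number as a block and each library left out.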

Additional observations from a re-analysis of the deposited data

How the results depend on the processing

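Counts of calls depended on library scaling and on single libraries, and the cause was not tested except where noted. Upper-quartile factors, which shift the median of all tested genes by -0.10, called 2607 of all tested genes higher and 3745 lower. They gave 1 cytosolic enzyme lower, 6 mitochondrial enzymes lower and a cytosolic median of 0.12. They also gave 2 other tRNA charging genes higher, and 5 mitochondrial translation genes higher and 2 lower. Library totals, which shift the median of all tested genes by -0.25, gave 2 cytosolic enzymes lower, 1 mitochondrial enzyme higher and 7 lower, and 1 scaffold gene higher. They gave 2 other tRNA charging genes higher and 6 lower, 3 mitochondrial translation genes higher and 2 lower, and 2026 of all tested genes higher and 4776 lower. The medians were then -0.024 for cytosolic and -0.40 for mitochondrial enzymes. The direction turned with library totals for Cars (-0.022), Dars (-0.035), Gars (-0.052), Lars (-0.042), Mars1 (-0.066), Qars (-0.15), Sars (-0.15), Vars (-0.22), Yars (-0.024), Fars2 (-0.095) and Tars2 (-0.14), for Vars with upper-quartile factors (-0.068) and for Cars2 without M0 replicate 1 (0.19, and -0.42 without M0 replicate 2), all uncalled in the fit reported. DESeq2 called 5 mitochondrial translation genes higher, beside 2932 of all tested genes.

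Leaving out each library in turn gave 6 to 9 cytosolic enzymes higher, 1 to 2 mitochondrial enzymes higher and 0 to 3 lower, 1 to 2 scaffold genes higher, 2 to 3 other tRNA charging genes higher and 1 to 3 lower. It gave 0 to 6 mitochondrial translation genes higher, 9 to 16 amino acid and stress response genes lower, and 1691 to 2965 of all tested genes higher and 1463 to 2854 lower. These fits have 1 residual degree of freedom and assume that the lone library varies like the other group, and the lowest counts mostly came without an M0 library.

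The number of cytosolic enzymes called higher stayed between 6 and 9 over the 12 alternatives. The labels do not say whether the replicate numbers pair the samples. The correlation of same-numbered deviations was -0.14, and with 2 libraries in each group it cannot decide this. With the replicate block 7 cytosolic enzymes were called higher (Farsb was lost) and, of all tested genes, 2957 higher and 2975 lower. With the replicate block crossed, a choice made after seeing the data, there were 13 cytosolic enzymes higher and 1 lower, 5 mitochondrial enzymes lower and 1 mitochondrial translation gene lower. The calls over all tested genes with the crossed block are not given here. These counts thus cannot be told apart from a general change in the number of calls. Leaving Lars2 out of the summed ratio was also chosen after seeing the data.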

Other observations

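Rars and Rars2, the arginine enzymes of the cytosol and of mitochondria, rose by a similar amount, with log2 fold changes of 0.81 and 0.93 and 95% intervals of 0.55 to 1.06 and 0.57 to 1.28. Both calls held in all 12 alternatives. No other pair of enzymes had both genes called higher. Threonine had 2 cytosolic enzymes that moved in opposite directions, Tars at 0.53 and Tarsl2 at -1.54, and Tarsl2 stood at 1.94 ± 0.137 CPM per kb of exon in M0 against 17.3 ± 0.0468 for Tars.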
